A study of Mus musculus with 9 samples.

Results

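In all, 9 genes of purinergic signalling were followed across a mouse stroke experiment: the ATP-gated channels P2rx4 and P2rx7, the nucleotide receptors P2ry6 and P2ry14, the ectonucleotidases Entpd1 and Nt5e, the adenosine receptors Adora1 and Adora3, and the channel Panx1. They were chosen by gene name, and all 9 were found among the 55401 genes of the deposited table. RNA was sequenced from brain at day 28 in 9 libraries, 3 per group, from mice whose genotype is given as WT. The labels state neither strain, sex nor age, and their tissue and design entries speak of brain around an infarct. The Pushen group had photothrombosis (PT), in which light and a photosensitive dye close cortical vessels, and then received the drug preparation Pushen by gavage from 24 h after surgery. Its libraries carry labelled doses of 391, 392 and 393 mg/kg and were treated as 1 group. The PT group had photothrombosis and received water, and the Sham group had sham surgery and received water.

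Cells that are stressed or active release ATP and UDP, in part through pannexin channels, and neighbouring cells sense these nucleotides through P2X channels and P2Y receptors. Ectonucleotidases on the cell surface then strip the phosphates: CD39, the product of Entpd1, takes ATP and ADP down to AMP, and CD73, the product of Nt5e, turns AMP into adenosine, which acts on its own receptors. In brain, microglia are known for nucleotide receptors that guide their processes, phagocytosis and cytokine release, while neurons carry the adenosine receptor encoded by Adora1, which damps transmitter release.

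Total counts per library lay between 57437342 and 73499628 in Pushen, between 64482908 and 75100133 in PT and between 66775462 and 72646409 in Sham. The labels' extraction protocol speaks of retinas, but none of 7 photoreceptor genes reached the level filter, and their summed level was at most 0.59 FPKM (fragment counts scaled to gene length and library size) in any library. Summed levels of 6 neuronal genes were between 625.84 and 766.11 FPKM in Pushen, between 497.57 and 646.96 FPKM in PT and between 826.51 and 916.53 FPKM in Sham. Nothing in the labels ties the libraries to separate mice; the p-values therefore reflect library-to-library spread alone, and that spread may be technical. In such bulk tissue, fewer cells of a type and less RNA per cell cannot be told apart.

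Of the 9 genes, 5 rose in PT against Sham: P2ry6, P2rx7, Entpd1, P2rx4 and Nt5e, by between 2.26-fold and 6.98-fold. P2ry14 and Adora3 were below the level filter and were also higher in every PT library than in any Sham library. Adora1 and Panx1 did not pass. No member passed in Pushen against PT, while P2ry6, P2rx7 and Entpd1 rose in Pushen against Sham. In all, 7 members reached a mean of 0.5 FPKM over the libraries and were tested by edgeR's quasi-likelihood test on counts, with Benjamini-Hochberg adjustment over 16740 genes and a threshold of 0.05. The 5 of 7 called higher in PT compare with 19.1% of all tested genes called higher and 30.9% called in either direction, and the members had been chosen with earlier results of these data known.

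**Figure D1:**
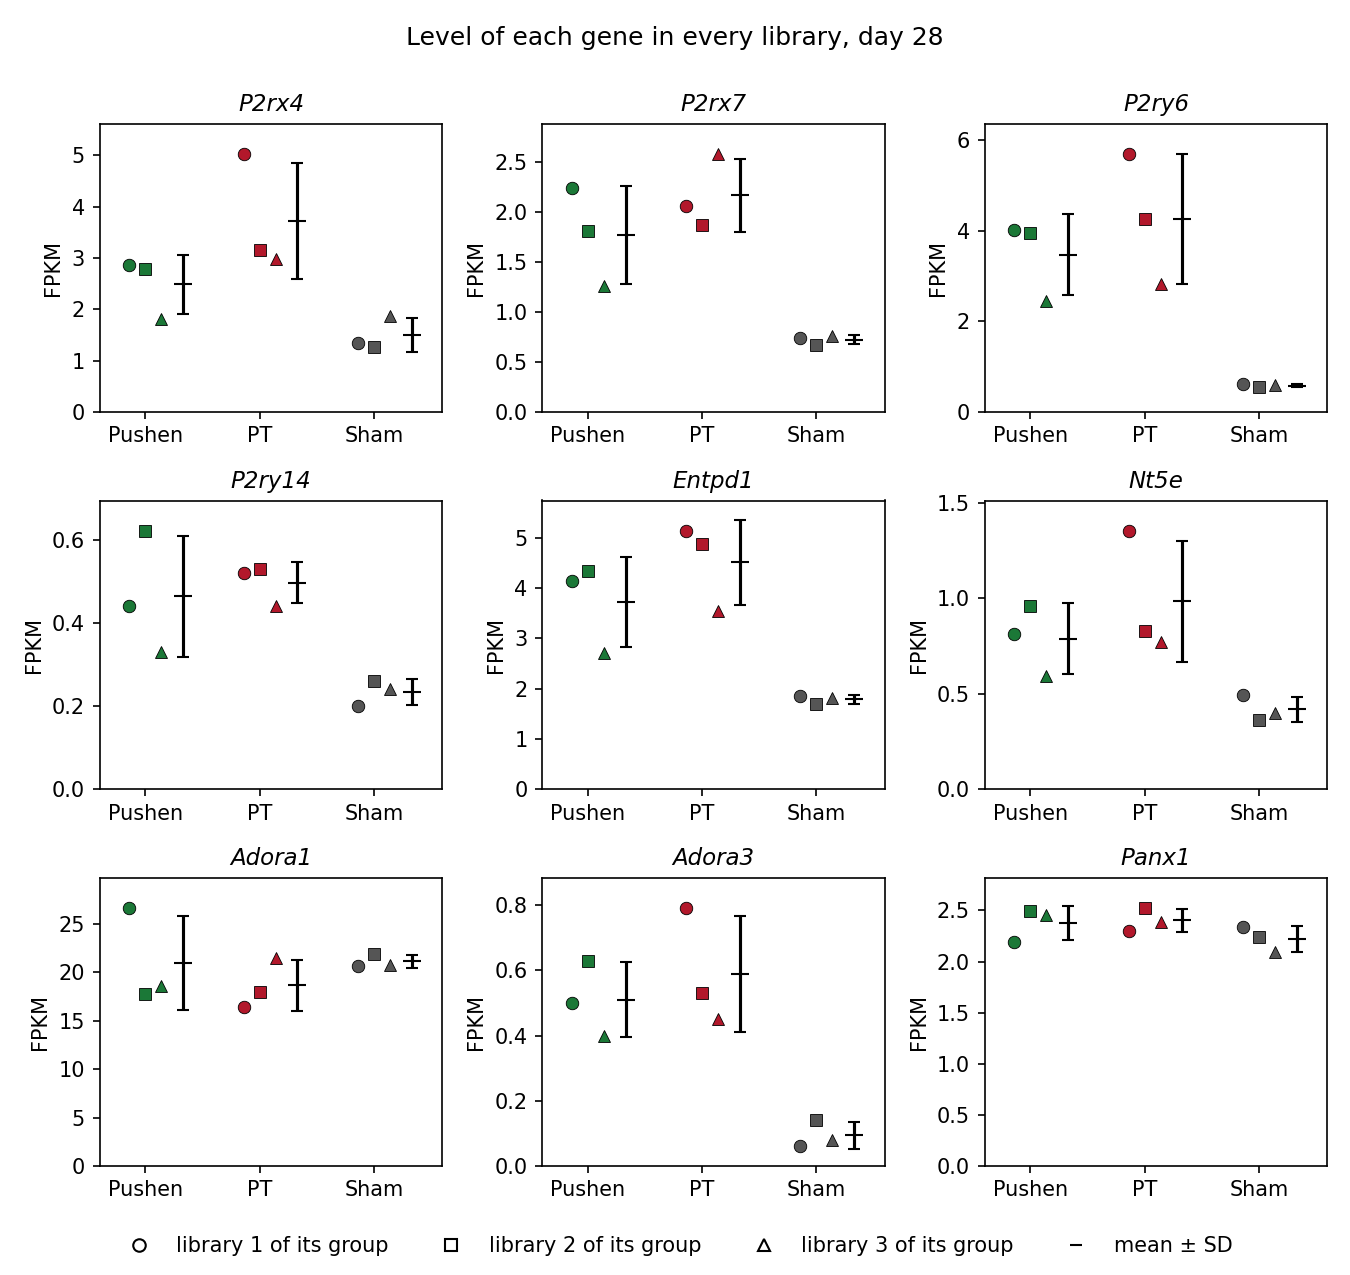
Level of each of the 9 genes in FPKM (vertical axes, each from 0) in the Pushen, PT and Sham libraries; circles, squares and triangles are libraries 1, 2 and 3 of a group, and bars are the mean ± SD of 3 libraries. P2ry6 lies at 2.44 FPKM or more in all Pushen and PT libraries and at most at 0.61 FPKM in Sham, whereas the groups overlap for Adora1 and Panx1.

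P2rx4 and P2rx7 encode channels that ATP opens to calcium and sodium; P2X7 needs far more ATP than P2X4 and is known to set off the inflammasome in microglia and macrophages. P2rx4 stood at 5.02, 3.16 and 2.99 FPKM in PT libraries 1, 2 and 3, against 1.35, 1.27 and 1.87 FPKM in the Sham libraries. PT library 1 was the highest, and the groups did not overlap. The log2 fold change was 1.25 ± 0.25 (SE; adjusted p = 0.00675 by edgeR). P2rx7 stood at 2.06, 1.87 and 2.58 FPKM in PT, against 0.74, 0.67 and 0.76 FPKM in Sham. Every PT library was above every Sham library, and here PT library 3 was the highest. Its log2 fold change was 1.53 ± 0.21 (adjusted p = 0.00118). The Pushen libraries 1, 2 and 3 held P2rx4 at 2.86, 2.78 and 1.82 FPKM and P2rx7 at 2.24, 1.81 and 1.26 FPKM, with library 3 the lowest for both genes. For P2rx4 Pushen library 3 lay within the Sham range, and for P2rx7 it remained above it.

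Both channel genes lie on the plus strand of chromosome 5 in the deposited coordinates, which are on GRCm38 by their match to GENCODE M21, although the starts or ends of P2rx7 and P2ry14 differ from that release. P2rx7 runs from 122643911 to 122684297 and P2rx4 from 122707544 to 122729738, 23.2 kb apart. An annotated miRNA gene, Mir8115, shares 119 exonic bases with P2rx7, 2.0% of its merged exons, and was at most at 0.15 FPKM. The level of P2rx4 relative to P2rx7, as a ratio of FPKM, was between 1.28 and 1.54 in Pushen, between 1.16 and 2.44 in PT and between 1.82 and 2.46 in Sham. The PT range overlapped those of both other groups, and the Pushen range lay below the Sham range.

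P2ry6 is the receptor for UDP, known to trigger phagocytosis by microglia, and P2ry14 is the receptor for UDP-glucose and related UDP-sugars. P2ry6 had the largest fold change of the 7 tested members. It stood at 5.69, 4.27 and 2.83 FPKM in PT libraries 1, 2 and 3, against 0.61, 0.54 and 0.60 FPKM in Sham. These values rest on 1335, 1057 and 600 counts in PT and 134, 129 and 136 counts in Sham. The lowest PT library was thus well above the highest Sham library, and PT itself spread widely while Sham did not. The log2 fold change was 2.80 ± 0.28, a 6.98-fold rise (adjusted p = 0.000462 by edgeR). P2ry6 lies on the minus strand of chromosome 7 from 100937630 to 100974649, and its level in Pushen was 4.03, 3.95 and 2.44 FPKM in libraries 1, 2 and 3.

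P2ry14 was low throughout, at 0.52, 0.53 and 0.44 FPKM in PT libraries 1, 2 and 3 and at 0.20, 0.26 and 0.24 FPKM in the Sham libraries. The groups did not overlap, and the counts behind these levels were 1331 over PT and 619 over Sham. With a mean of 0.398 FPKM over the 9 libraries it was below the level filter. A fit of all 35527 genes with a count gave a log2 fold change of 1.00 ± 0.22 (adjusted p = 0.016, edgeR), and without Sham library 1 or PT library 2 the adjusted p was 0.0691 and 0.0505. In the Pushen libraries P2ry14 stood at 0.44, 0.62 and 0.33 FPKM, the last again in library 3. P2ry6 was between 6.37 and 9.16 times the level of P2ry14 in Pushen, between 6.43 and 10.9 times in PT, and between 2.08 and 3.05 times in Sham, as ratios of FPKM. P2ry14 lies on the minus strand of chromosome 3 from 59113855 to 59132462, inside the opposite-strand gene Med12l, with 0 exonic bases in common. Med12l was between 1.49 and 3.52 FPKM over the libraries, above P2ry14. Whether counting used the strand is not stated, so reads from Med12l introns could enter the values of P2ry14. Their part was not tested.

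Entpd1 and Nt5e act one after the other on extracellular nucleotides; CD39 is found on microglia and vessels, and CD73 is the last step to adenosine. Entpd1 stood at 5.13, 4.87 and 3.55 FPKM in PT libraries 1, 2 and 3, against 1.86, 1.69 and 1.81 FPKM in Sham. Sham was tight, and the groups were apart. The log2 fold change was 1.28 ± 0.19 (adjusted p = 0.0018 by edgeR). Nt5e stood at 1.35, 0.83 and 0.77 FPKM in PT, against 0.49, 0.36 and 0.40 FPKM in Sham. PT library 1 was far above the other PT libraries, and all 3 exceeded Sham. Its log2 fold change was 1.18 ± 0.26 (adjusted p = 0.0101). Without PT library 1, Nt5e still passed; over all alternatives run its log2 fold change lay between 0.89 and 1.32 and its adjusted p between 0.000193 and 0.0431.

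In the Pushen libraries 1, 2 and 3, Entpd1 stood at 4.14, 4.35 and 2.70 FPKM and Nt5e at 0.81, 0.96 and 0.59 FPKM. All of these lay above the Sham libraries, with library 3 the lowest. The ratio of Entpd1 to Nt5e in FPKM was between 4.53 and 5.11 in Pushen, between 3.80 and 5.87 in PT and between 3.80 and 4.69 in Sham. The 3 ranges overlapped. Entpd1 lies on the plus strand of chromosome 19 from 40612366 to 40741602, and the pseudogene Gm8783 in one of its introns, with 0 exonic bases in common, averaged 3.75 FPKM; Nt5e lies on the plus strand of chromosome 9 from 88327197 to 88372092.

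Adora1 and Adora3 encode adenosine receptors coupled to inhibitory G proteins; Adora1 is mainly neuronal, and Adora3 is known from mouse mast cells and microglia. Adora1 was the most abundant member per length in all 3 groups. It stood at 16.46, 17.95 and 21.50 FPKM in PT libraries 1, 2 and 3, against 20.66, 21.94 and 20.76 FPKM in Sham. The groups overlapped through PT library 3, and the log2 fold change of -0.24 ± 0.16 did not pass (95% interval -0.59 to 0.12; adjusted p = 0.284 by edgeR). Adora3 was at the other end of the scale. It stood at 0.79, 0.53 and 0.45 FPKM in PT, from 240, 171 and 122 counts, against 0.06, 0.14 and 0.08 FPKM in Sham, from 17, 45 and 23 counts. The lowest PT library was above the highest Sham library, and both groups were low. Its mean of 0.398 FPKM was below the filter; in the fit of every gene with a count, the log2 fold change was 2.54 ± 0.38 (adjusted p = 0.00197 by edgeR), and it passed in all 16 alternatives that gave it a value.

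In the Pushen libraries 1, 2 and 3, Adora1 stood at 26.60, 17.79 and 18.54 FPKM and Adora3 at 0.50, 0.63 and 0.40 FPKM. Pushen library 1 held the highest Adora1 value of all libraries. Adora1 was between 28.2 and 53.2 times the level of Adora3 in Pushen, between 20.8 and 47.8 times in PT, and between 157 and 344 times in Sham, as ratios of FPKM. Both groups with photothrombosis were thus apart from Sham in this ratio. Its Sham values divide by Adora3 levels of 0.06, 0.14 and 0.08 FPKM, so it is no result separate from that of Adora3. Adora1 lies on the minus strand of chromosome 1 from 134199223 to 134235431 and shares 1162 exonic bases, 20.1% of its merged exons, with the opposite-strand gene Mybph, which was at most at 0.23 FPKM. Adora3 lies on the plus strand of chromosome 3 from 105870858 to 105908926 and shares 779 exonic bases, 20.9%, with Tmigd3 on the same strand, which was at most at 0.1 FPKM. Whether counting used the strand is not stated, so the values of Adora1 are uncertain where its reads and those of Mybph can be mixed. Tmigd3 is on the strand of Adora3, so reads in their shared bases are uncertain under any strand setting. Of 6 mast cell marker genes none reached the level filter, and their summed level was between 0.27 and 0.67 FPKM in Pushen, between 0.52 and 0.77 FPKM in PT and between 0 and 0.03 FPKM in Sham. Cpa3, Cma1, Mcpt4, Ms4a2 and Fcer1a had no count in Sham. Of these, Fcer1a had counts in Pushen library 2 alone (8), and Ms4a2 only in PT library 2 (8) and Pushen library 1 (4). The part of these cells in the Adora3 values was not tested.

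Panx1, a plasma membrane channel through which ATP leaves cells, was the steadiest member. It stood at 2.19, 2.49 and 2.46 FPKM in Pushen libraries 1, 2 and 3, 2.30, 2.52 and 2.39 FPKM in PT, and 2.34, 2.24 and 2.09 FPKM in Sham. The 3 groups overlapped. The log2 fold change of PT against Sham was 0.06 ± 0.10 (adjusted p = 0.705 by edgeR), with a 95% interval from -0.17 to 0.28. Panx1 lies on the minus strand of chromosome 9 from 15002128 to 15045478.

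The order of the levels differed between PT and Sham. In PT the mean FPKM ran from Adora1 (18.6 ± 2.59, SD, n = 3) through Entpd1 (4.52 ± 0.847), P2ry6 (4.26 ± 1.43), P2rx4 (3.72 ± 1.13), Panx1 (2.40 ± 0.111), P2rx7 (2.17 ± 0.368), Nt5e (0.983 ± 0.319) and Adora3 (0.59 ± 0.178) to P2ry14 (0.497 ± 0.0493). Entpd1, P2ry6 and P2rx4 overlapped one another, as did Panx1 and P2rx7, Nt5e and Adora3, and Adora3 and P2ry14. The means of the Pushen libraries ran in the same order, from Entpd1 at 3.73 through 3.47, 2.49, 2.38, 1.77, 0.787 and 0.51 to P2ry14 at 0.463 FPKM, with Adora1 again at the top. In Sham it ran from Adora1 (21.1 ± 0.712) through Panx1 (2.22 ± 0.126), Entpd1 (1.79 ± 0.0874), P2rx4 (1.50 ± 0.326), P2rx7 (0.723 ± 0.0473), P2ry6 (0.583 ± 0.0379), Nt5e (0.417 ± 0.0666) and P2ry14 (0.233 ± 0.0306) to Adora3 (0.0933 ± 0.0416). Only Entpd1 and P2rx4 overlapped among these Sham neighbours. P2ry6, Entpd1 and P2rx4, all below Panx1 in every Sham library, were above Panx1 in every PT library.

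**Figure D2:**
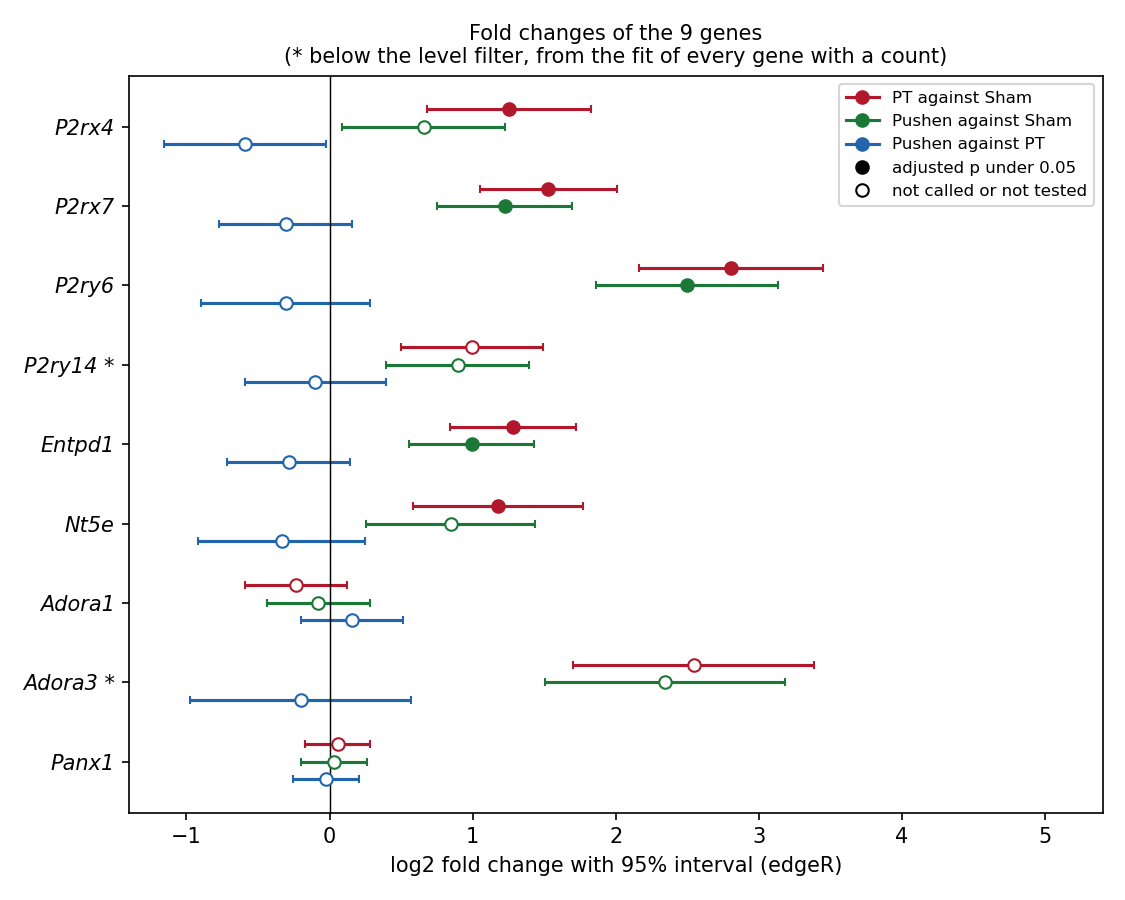
Log2 fold changes of the 9 genes with 95% intervals (horizontal axis) for PT against Sham, Pushen against Sham and Pushen against PT; filled points passed an adjusted p of 0.05, and a star marks genes below the level filter. P2ry6 has the largest value among tested genes in PT against Sham (2.80), and no point of Pushen against PT is filled.

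Over all members, 7 of 9 had every PT library above every Sham library, beside 29.3% of tested genes in that direction, and 0 had every PT library below, beside 18.6%. The 7 include P2ry14 and Adora3, which were below the level filter, whereas these shares cover only genes that reached it. The median log2 fold change of the 7 tested members was 1.25, beside -0.0029 over all tested genes. The 5 calls in PT against Sham were kept in each alternative that tested the gene. Without the level filter, P2ry14 and Adora3 joined them, and 7 members passed.

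Pushen was then compared with Sham, asking whether brains treated after photothrombosis differed from sham brains; this comparison shares the Sham libraries with the one above, so the values of both stand side by side. P2ry6 rose by 2.50 ± 0.28 on the log2 scale (adjusted p = 0.000796 by edgeR), P2rx7 by 1.22 ± 0.21 (adjusted p = 0.0048) and Entpd1 by 0.99 ± 0.19 (adjusted p = 0.00854). These 3 of 7 tested members compare with 13.5% of all tested genes called higher. For 6 of the 9 members, all Pushen libraries were above all Sham libraries, beside 27.2% of tested genes, and for 0 were all below (13.1%). The 6 again include P2ry14 and Adora3, which are outside the tested genes. The median log2 fold change of the tested members was 0.85, beside -0.015 over all tested genes.

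Nt5e and P2rx4 were short of the threshold in Pushen against Sham, at 0.85 ± 0.26 (adjusted p = 0.0579 by edgeR) and 0.66 ± 0.25 (adjusted p = 0.108). Both depended on single libraries. Without Pushen library 3 both passed, at 1.01 (adjusted p = 0.0312) and 0.83 (adjusted p = 0.0498), and without PT library 1, which enters through the shared spread, Nt5e passed at 0.85 (adjusted p = 0.0235). With both of these libraries present, Nt5e also passed with DESeq2 (adjusted p = 0.0144). Adora1 had a log2 fold change of -0.08 (95% interval -0.43 to 0.28), and Panx1 one of 0.03 (-0.20 to 0.26). In the fit of every gene with a count, Adora3 passed at 2.34 ± 0.38 (adjusted p = 0.00424), and so did P2ry14 at 0.89 ± 0.22 (adjusted p = 0.0394). The P2ry14 call was lost without Sham library 1, 2 or 3 (adjusted p = 0.143, 0.0944 and 0.101), PT library 2 (0.0613) or Pushen library 1 or 2 (0.0877 and 0.142).

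Set against PT itself, Pushen left none of the 7 tested members past the threshold, and edgeR called 0 of 16740 genes (0%). At an unadjusted p under 0.05 there were 1086 genes, 6.49%, and DESeq2 called 49 genes, no member among them. P2rx4 was the one member with such an unadjusted p (0.042; adjusted p = 0.707) and the one whose Pushen libraries, at 2.86, 2.78 and 1.82 FPKM, all lay below the PT libraries, at 5.02, 3.16 and 2.99 FPKM. Of all tested genes, 5.19% were apart in this way, and 7.25% with Pushen above, which no member was. Its log2 difference was -0.59 (95% interval -1.16 to -0.03). For P2rx7 the difference was -0.31 (-0.77 to 0.16), for P2ry6 -0.31 (-0.90 to 0.28), for Entpd1 -0.29 (-0.72 to 0.14) and for Nt5e -0.33 (-0.92 to 0.25). All 5 were on average lower in Pushen, and the interval of P2rx4 alone ended below 0. These 5 are the members called higher in PT against Sham, which uses the same PT libraries. High values in those libraries raise that difference and lower this one, so the shared sign is no separate result. Adora1 differed by 0.16 (-0.20 to 0.52), and Panx1 by -0.03 (-0.25 to 0.20). The median over the tested members was -0.31, beside -0.0081 over all tested genes, a set not limited to genes called higher in PT.

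Single libraries moved these differences. Among the 6 libraries with photothrombosis, Pushen library 3 held the lowest CPM (count scaled to library size) of 7 of the 9 members, all but Adora1 and Panx1, while PT library 1 held the highest of 5 (P2rx4, P2ry6, Entpd1, Nt5e and Adora3). Pushen library 3 was also the lowest of the 6 for 64.3% of the genes called higher in PT against Sham, and for 21.2% of all tested genes. PT library 1 was the highest for 58.2% and 27.3% of the same genes. Without Pushen library 3, the log2 difference of Pushen against PT was -0.42 for P2rx4, -0.12 for P2rx7, -0.11 for P2ry6, -0.11 for Entpd1 and -0.17 for Nt5e. Without PT library 1 it was -0.32 for P2rx4, -0.34 for P2rx7, -0.045 for P2ry6, -0.19 for Entpd1 and -0.039 for Nt5e. All 5 kept their sign in both, and none passed.

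**Figure D3:**
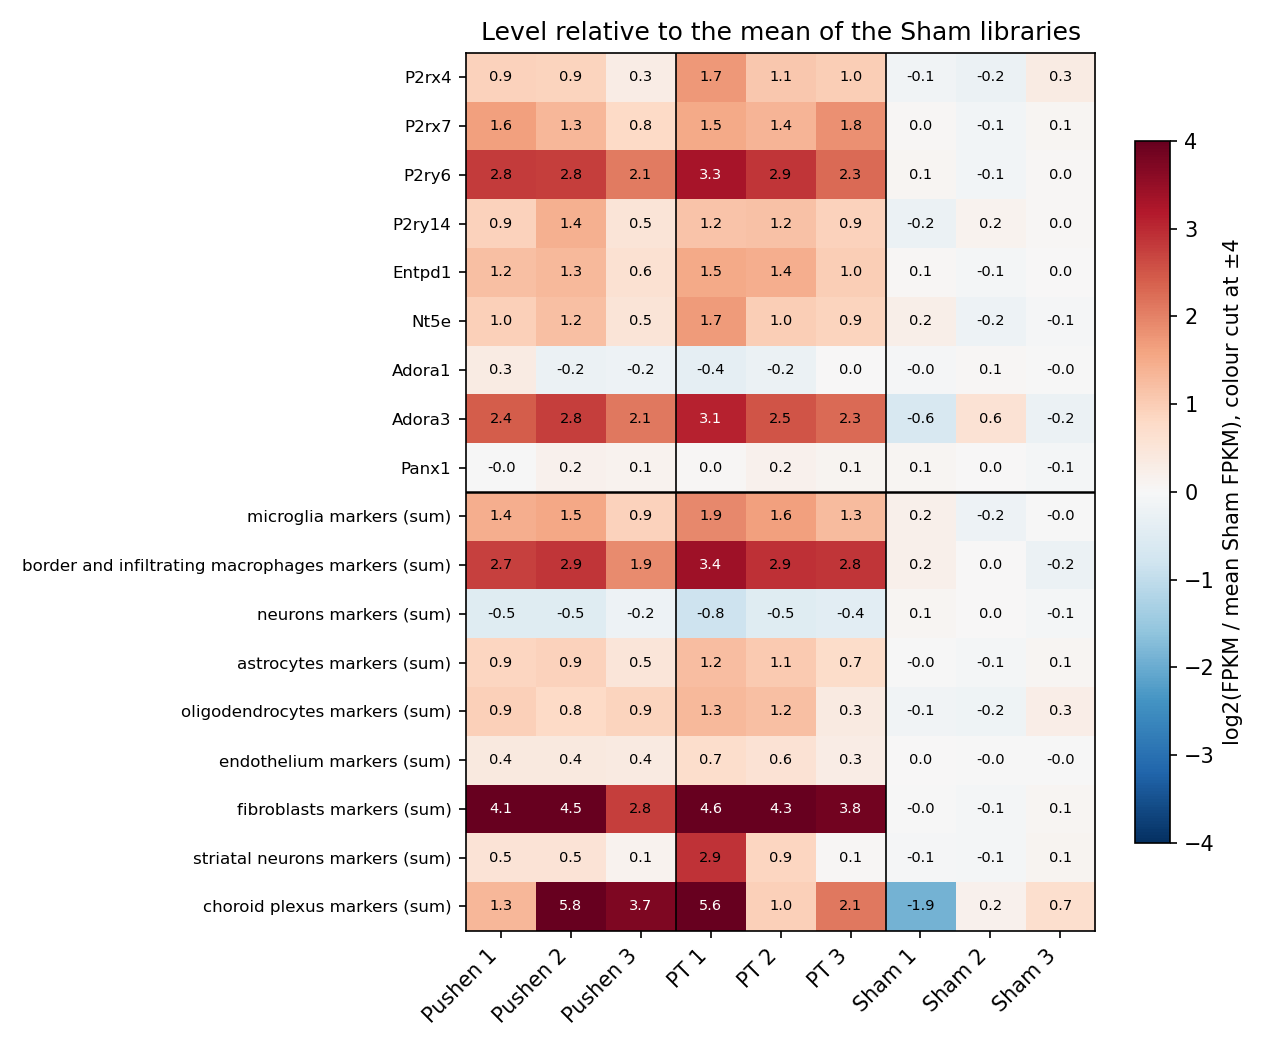
Level of the 9 genes (upper rows) and summed level of 9 marker lists (lower rows) in each Pushen, PT and Sham library, as log2 of FPKM over the mean of the Sham libraries, with values printed in the cells. P2ry6 lies between 2.06 and 2.79 in Pushen and between 2.28 and 3.29 in PT, while the microglia marker sum lies between 0.93 and 1.54 in Pushen and between 1.27 and 1.92 in PT. The macrophage marker sum lies between 1.895 and 2.87 in Pushen and between 2.845 and 3.41 in PT.

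Most tested microglia and macrophage markers rose in PT against Sham, as did markers of several other cell types given below. Of 9 microglia markers 7 rose in PT against Sham (median log2 fold change 0.86), and their summed level was between 120.95 and 184.05 FPKM in Pushen, between 153 and 239.29 FPKM in PT and between 55.5 and 72.21 FPKM in Sham. Pushen library 3 had the lowest Pushen sum. Of 6 macrophage markers 4 were tested and all 4 rose (median 2.69), with sums between 4.55 and 8.93 FPKM in Pushen, between 8.79 and 12.96 FPKM in PT and between 1.03 and 1.40 FPKM in Sham. Relative to the Sham mean, P2ry6 and Adora3 were above the microglia sum in every Pushen and PT library on the log2 scale. Against the macrophage sum, P2ry6 was lower in every PT library and in Pushen library 2, and higher in Pushen libraries 1 and 3. Adora3 was below the macrophage sum in every PT library and in Pushen libraries 1 and 2, and above it in Pushen library 3. P2rx4, P2ry14, Entpd1 and Nt5e were below the microglia sum in each Pushen and PT library, and P2rx7 was above it in Pushen library 1 and PT library 3 alone. The part of microglia and macrophages in the members' values was not tested.

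The other marker lists were uneven. In PT against Sham, 5 of 6 astrocyte, 5 of 6 oligodendrocyte, 5 of 6 endothelial, 3 of 4 mural and 5 of 5 fibroblast markers rose, as did both tested T cell and both tested B cell markers, while 4 of 6 neuronal markers fell. Neither of the 2 tested neutrophil markers passed. Choroid plexus markers summed to 546.34 FPKM in PT library 1 and 627.08 FPKM in Pushen library 2, and to between 3.1 and 150.78 FPKM in the other libraries. Striatal markers summed to 507.58 FPKM in PT library 1 and to at most 124.24 FPKM elsewhere. With PT library 1 and Pushen library 2 both omitted, which was decided on seeing these sums, the same number of members passed in PT against Sham (5) and in Pushen against Sham (3).

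Promoter windows of RefSeq (GRCm38.p6), 250 bases before to 50 after a start, were matched to 8 of the 9 members, P2ry6 being the exception, in 14 windows. They were searched on both strands for the letters GAGGAAGT (a PU.1-type ETS site), TGACTCA (an AP-1 site) and TTCNNNGAA (a STAT-type site); PU.1 is the master factor of microglia and macrophages, and AP-1 is the Fos and Jun dimer. The PU.1-type letters were in 2 member windows and 3.2% of all 32851 windows, the AP-1 letters in 3 and 5.2%, and the STAT-type letters in 0 and 8.3%. No hit overlapped another. The 4 windows with a match are shown 5′ to 3′ from 250 bases before the start to 20 bases from it, with the matched letters in capitals. They are P2rx7 at chr5:122643677-122643946 (plus strand) and at a second start inside the gene at chr5:122650133-122650402 (plus strand), P2ry14 at chr3:59153473-59153742 (minus strand, a start upstream of the deposited gene) and Adora3 at chr3:105904171-105904440 (plus strand, inside the deposited gene).
P2rx7 first start: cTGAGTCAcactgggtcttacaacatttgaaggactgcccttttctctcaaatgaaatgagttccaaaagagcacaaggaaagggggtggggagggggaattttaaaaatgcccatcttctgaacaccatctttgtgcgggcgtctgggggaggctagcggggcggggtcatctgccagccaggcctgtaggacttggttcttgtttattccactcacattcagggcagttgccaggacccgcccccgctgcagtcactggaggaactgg
P2rx7 second start: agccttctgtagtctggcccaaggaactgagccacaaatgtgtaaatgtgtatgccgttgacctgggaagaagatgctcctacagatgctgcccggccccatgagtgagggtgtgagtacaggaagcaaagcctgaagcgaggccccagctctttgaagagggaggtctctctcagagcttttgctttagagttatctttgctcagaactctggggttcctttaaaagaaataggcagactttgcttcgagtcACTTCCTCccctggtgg
P2ry14: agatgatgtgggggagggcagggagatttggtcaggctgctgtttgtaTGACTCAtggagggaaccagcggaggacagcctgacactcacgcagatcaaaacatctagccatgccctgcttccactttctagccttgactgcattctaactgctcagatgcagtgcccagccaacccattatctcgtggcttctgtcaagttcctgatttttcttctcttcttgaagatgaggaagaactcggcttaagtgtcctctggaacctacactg
Adora3: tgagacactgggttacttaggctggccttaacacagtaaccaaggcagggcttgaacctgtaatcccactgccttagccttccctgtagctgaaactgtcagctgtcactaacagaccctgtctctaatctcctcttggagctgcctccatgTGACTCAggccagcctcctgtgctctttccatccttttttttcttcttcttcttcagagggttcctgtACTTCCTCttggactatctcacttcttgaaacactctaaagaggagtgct
The AP-1 letters began 249 bases before the first P2rx7 start, 202 before the P2ry14 start and 98 before the Adora3 start. The PU.1-type letters began 30 bases before the Adora3 start and 3 bases after the first base of the second P2rx7 start. A match describes these letters only, and the windows of P2rx4, Entpd1, Nt5e, Adora1 and Panx1 and the other 3 windows of P2ry14 held none of them.

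For each tested member, the 3 protein-coding genes of most similar pattern were taken by Pearson's r of log2 CPM over the 9 libraries, among 13539 genes. The members share these libraries, which fall into groups with and without photothrombosis, so r describes this table and has no test. P2ry6 was closest to Card9 (0.998), Ppic (0.998) and Gstm2 (0.998), and Entpd1 to Pnpla7 (0.996), Lamp1 (0.996) and Fas (0.996). P2rx7 was closest to Jun (0.989), Nedd9 (0.987) and Mta2 (0.985), P2rx4 to Dmpk (0.987), Traf4 (0.984) and Pskh1 (0.981), and Nt5e to Foxo1 (0.986), Selplg (0.983) and Sh3glb1 (0.982). Adora1 was closest to Luc7l3 (0.965), Fam133b (0.951) and Btbd9 (0.947), and Panx1, whose levels hardly varied, to 2310022A10Rik (0.918), Cks2 (0.894) and Raly (0.894). In the KEGG terms of the authors' deposited table, 6 members share neuroactive ligand-receptor interaction, P2rx7 and Panx1 share NOD-like receptor signalling, and Entpd1 and Nt5e share purine and pyrimidine metabolism.

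The wider purinergic pathway was listed as 44 genes in 6 groups, 35 of them not members. Of these 35, 22 were tested, 14 rose and 1 fell in PT against Sham, beside 19.1% and 11.8% of tested genes. The count of 15 was 6, 7 and 9 without Sham library 2, Sham library 3 and PT library 1. Among P2X channels other than the members, P2rx5 had a log2 fold change of 1.11 ± 0.37 (adjusted p = 0.0499 by edgeR). That call was lost when any one of Sham libraries 2 and 3, PT libraries 1 and 2 or the Pushen libraries was left out (adjusted p = 0.147, 0.136, 0.114, 0.147, 0.0711, 0.0654 and 0.0542). With all libraries kept, it was also lost with RLE scaling, no filter or the compared groups alone (adjusted p = 0.0516, 0.0863 and 0.0802 by edgeR). P2rx6 had 0.57 ± 0.36 (adjusted p = 0.253). Among P2Y receptors, P2ry1, a receptor for ADP, rose by 1.73 ± 0.25 on the log2 scale (adjusted p = 0.00146), at 1.66, 1.49 and 1.15 FPKM in PT and 0.39, 0.43 and 0.42 FPKM in Sham. P2ry12, the ADP receptor that marks resting microglia, stood at 6.10, 9.91 and 7.99 FPKM in PT and 9.75, 5.70 and 8.46 FPKM in Sham. Its groups overlapped, and its log2 fold change was -0.06 ± 0.25 (adjusted p = 0.891), with the sign turned when counts were scaled by library size only. P2ry12 was between 1.07 and 2.82 times the level of P2ry6 in PT and between 10.6 and 16.0 times in Sham, as ratios of FPKM. P2ry13 was at 0.87 ± 0.25 (adjusted p = 0.0315), a call lost when Sham library 2 or 3, or PT library 1 or 2, was left out (adjusted p = 0.102, 0.0894, 0.107 and 0.0795).

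Among the other adenosine receptors, Adora2b rose by 1.32 ± 0.24 (adjusted p = 0.00416 by edgeR). Adora2a, a receptor abundant in striatal neurons, was called at 3.99 ± 1.04 (adjusted p = 0.0195), but its PT levels were 27.67, 3.81 and 1.05 FPKM, against 0.52, 0.59 and 0.84 FPKM in Sham. PT library 1, the library with the high striatal marker sum, held nearly all of it. Without that library the log2 fold change was 1.84 (adjusted p = 0.0415), and without Sham library 1, 2 or 3 the call was lost (adjusted p = 0.0749, 0.0681 and 0.0515). Its Pushen levels were 2.73, 2.54 and 1.28 FPKM, and the part of striatal tissue in these values was not tested.

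Among other ectonucleotidases, Entpd2, which makes ADP from ATP, rose by 0.97 ± 0.15 (adjusted p = 0.00197 by edgeR), and the alkaline phosphatase Alpl by 0.88 ± 0.21 (adjusted p = 0.0146; 0.0539 without Sham library 2). Enpp1, which splits ATP to AMP and pyrophosphate, stood at 1.40, 1.63 and 0.38 FPKM in Pushen, 1.44, 1.36 and 1.29 FPKM in PT and 0.40, 0.43 and 0.51 FPKM in Sham. Pushen library 3 alone of the 6 libraries with photothrombosis was as low as Sham. Enpp1 was called in PT against Sham at 1.55 ± 0.42 (adjusted p = 0.0234), a call lost on leaving out any Sham library, in order, or PT library 1 or 2 (adjusted p = 0.0815, 0.0722, 0.0511, 0.0606 and 0.0519). In Pushen against Sham it did not pass (1.28 ± 0.42, adjusted p = 0.0711), and without Pushen library 3 it did, at 1.69 (adjusted p = 0.00013).

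Further along the pathway, the nucleoside transporter Slc29a3 rose by 1.25 ± 0.17 (adjusted p = 0.00102 by edgeR), and Pnp, which splits inosine, by 1.26 ± 0.20 (adjusted p = 0.00211). Slc29a1, the main equilibrative adenosine transporter, was called at 0.46 ± 0.12 (adjusted p = 0.0233), and missed the threshold with Sham library 1, 2, 3 or PT library 1 left out (adjusted p = 0.0505, 0.0776, 0.0641 and 0.0553). Slc29a2, the one pathway gene that fell, was named after its values were seen, at -0.38 ± 0.12 (adjusted p = 0.0372). Its own value was not followed through the alternatives, so whether this call depends on single libraries was not tested. In the release group, Gja1, the astrocyte gap junction protein, rose by 1.44 ± 0.29 (adjusted p = 0.00655). Calhm2, of a family of large-pore channels, was called at 0.77 ± 0.20 (adjusted p = 0.0198), and lost that call with Sham library 1, 2, 3 or PT library 2 left out (adjusted p = 0.0602, 0.0613, 0.0545 and 0.0606). Panx2, the pannexin of neurons, had -0.42 ± 0.15 (adjusted p = 0.0584), and passed at -0.57 without PT library 3 (adjusted p = 0.0191) and with DESeq2 (adjusted p = 0.0288). In Pushen against Sham, 9 of the 22 tested genes rose and 0 fell, beside 13.5% and 2.73% of tested genes; without Sham library 2 or 3 or Pushen library 2 the count was 5, 5 and 4. P2ry1 (1.39 ± 0.25, adjusted p = 0.00579), Entpd2 (0.77 ± 0.15, 0.00873), Slc29a3 (1.14 ± 0.17, 0.00229) and Pnp (1.25 ± 0.20, 0.00333) were called in every alternative run that tested them. The other 5 were P2ry13 (0.94), Adora2b (1.03), Alpl (0.72), Ada (1.76), the enzyme that removes adenosine, and Gja1 (1.30), each with an adjusted p between 0.016 and 0.0496, and each was lost without at least 1 library. In Pushen against PT, 0 of the 22 passed; the smallest unadjusted p was that of Slc29a1, at -0.31 ± 0.12 (adjusted p = 0.707 by edgeR).

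**Figure D4:**
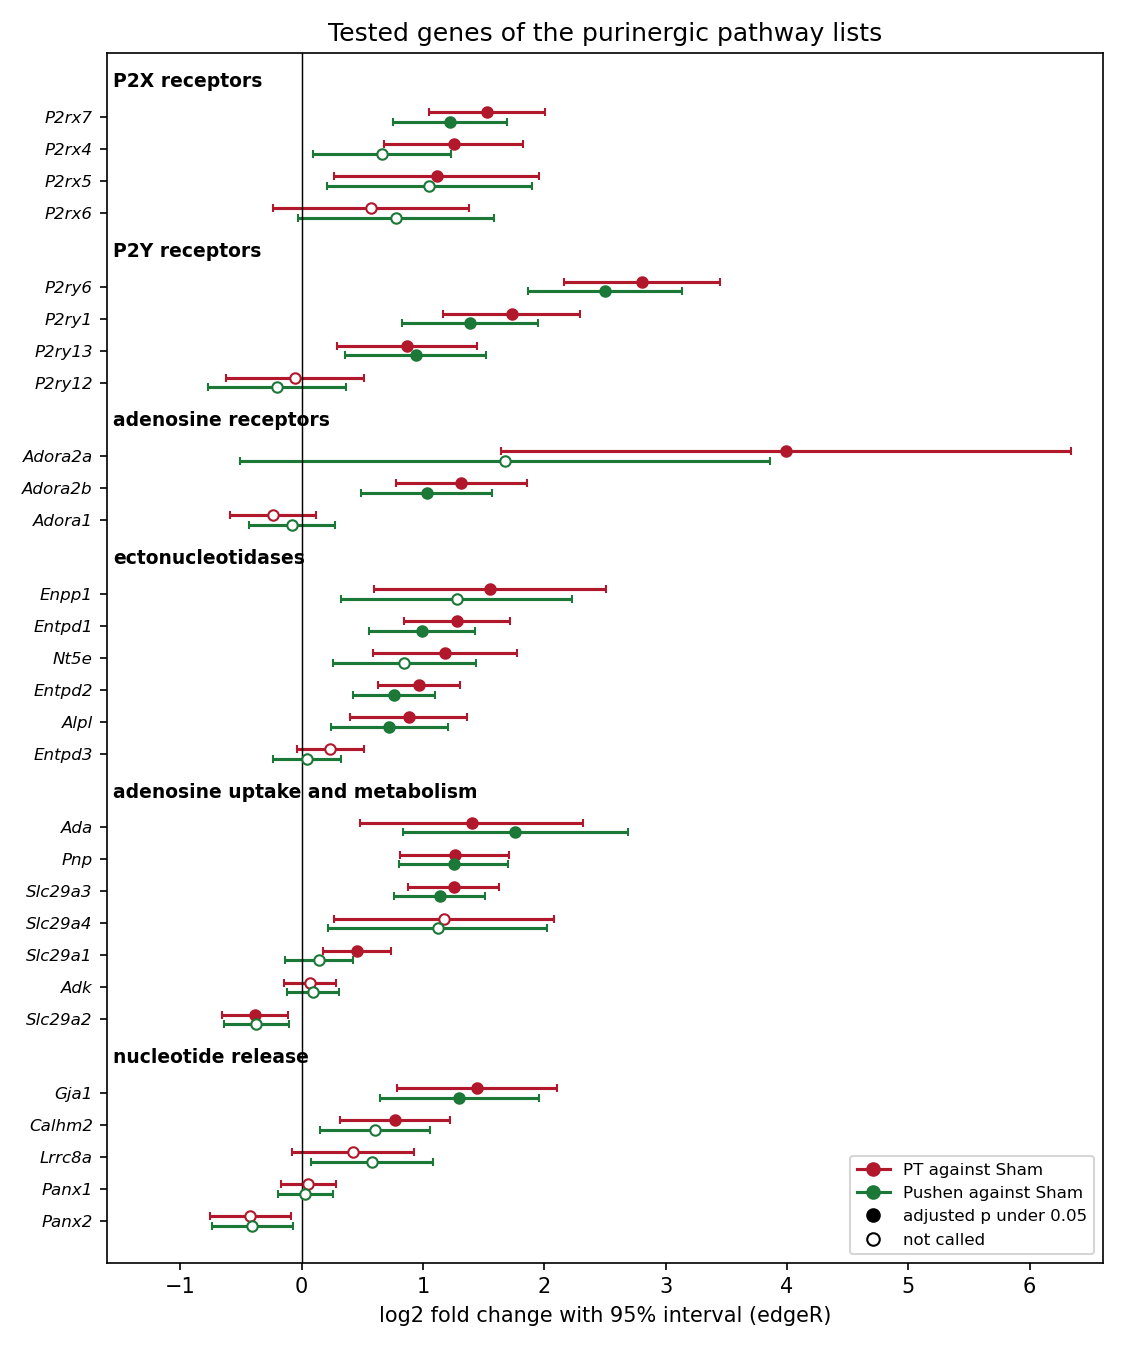
Log2 fold changes with 95% intervals (horizontal axis) of the tested genes of the 6 pathway lists, members included, in PT against Sham and Pushen against Sham; filled points passed an adjusted p of 0.05. Most filled points lie right of 0, Slc29a2 is the one filled point left of it, and Adora2a has the widest interval.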

How the data were processed

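RNA was sequenced in 9 libraries, 3 per group. Per library, the deposited table holds read counts that the authors left unscaled; the sources used here do not name the counter or its strand setting. A second set of columns holds FPKM, per the file headers, in which the authors divided by gene length and depth. Bowtie 0.12.2 and build mm8 are named, per the submitters' processing notes, but 94.2% of 55141 shared gene identifiers have the GRCm38 start and end of GENCODE M21. Each of the 18 value columns carries the name of its library.

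Genes averaging 0.5 FPKM or more (16740) were tested on counts with edgeR 4.0.16 in R 4.3.3, with TMM scaling and all groups in one fit, and p-values were adjusted by Benjamini-Hochberg over all of them. Standard errors are the log2 fold change over the square root of F. The pipeline was tested on simulated data. Members, the 6 pathway lists, the 15 marker lists and the tests were chosen with earlier results of these data known. All members are named; of each pathway list and comparison, up to 3 other tested genes of smallest p; and 3 genes of nearest pattern per tested member. A gene named outside this is said to be. Alternatives were other scalings, filters of 1 FPKM or none, DESeq2 1.42.0, only the compared groups, a replicate block, and omission of each library. Python 3.11.15 with matplotlib 3.10.9 made the figures. Intervals cover the spread between libraries.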

Additional observations from a re-analysis of the deposited data

How the results depend on the processing

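In PT against Sham, all 5 members called kept their call and direction under every alternative that tested them, and the count stayed at 5 when any library was left out. Of all tested genes, between 3198 and 5799 were called as single libraries were left out (3198 without Sham library 1, 3365 without Sham library 2), against 5176 in all; of the other pathway genes, between 6 and 16, and 8 without PT library 1 and Pushen library 2 together. In Pushen against Sham, between 1538 and 3736 genes were called with a library left out (1660 without Sham library 1 and 1538 without Sham library 2, 1568 without Pushen library 1 and 1594 without Pushen library 2), against 2718, and between 3 and 5 members (5 without Pushen library 3). Without the level filter 5 members passed, as P2ry14 and Adora3 then entered the test. Of the other pathway genes between 4 and 13 passed with a library left out, 14 with DESeq2, and 5 without PT library 1 and Pushen library 2 together. In Pushen against PT, where edgeR called 0 genes, DESeq2 called 49, the compared groups alone 1, the fits without 1 library between 0 and 5, and the fit without PT library 1 and Pushen library 2 together 2; no member was among the calls in any of these fits.

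Signs turned for differences near 0. In PT against Sham, P2ry12 was at 0.0094 with scaling by library size only, 0.11 without PT library 1 and Pushen library 2 together, and between -0.25 and 0.13 as single libraries were left out (above 0 without Sham library 1 or PT library 1). In Pushen against PT, values with a library left out lay between -0.39 and 0.054 for Adora3 (above 0 without PT library 1), between -0.37 and 0.080 for P2ry14 and between -0.33 and 0.010 for Calhm2 (above 0 without Pushen library 3), between -0.059 and 0.037 for Panx1 (above 0 without PT library 2 or Pushen library 1), between -0.041 and 0.28 for Adora1 (below 0 without Pushen library 1) and between -0.046 and 0.64 for P2rx6 (below 0 without PT library 2). In Pushen against Sham they lay between -0.017 and 0.093 for Panx1 (below 0 without Sham library 3 or Pushen library 3) and between -0.28 and 0.030 for Adora1 (above 0 without Pushen library 2), with Adora1 at 0.030 without PT library 1 and Pushen library 2 together. The cause was not tested.

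Libraries with the same replicate number did not deviate together (correlations between -0.22 and 0.0988). Pairs of different number had correlations between -0.1046 and 0.1517. Such values cannot show whether libraries of the same number shared any handling. With the replicate number as a block, Nt5e passed in Pushen against Sham (adjusted p = 0.04996), P2ry14 did not (0.86, adjusted p = 0.06), and no other member's call changed. Among the other pathway genes named, the block ended the calls of Adora2a in PT against Sham (3.05, adjusted p = 0.0676) and of Adora2b (1.03, adjusted p = 0.0501) and Alpl (0.72, adjusted p = 0.0548) in Pushen against Sham; the counts of genes called were then 4266 (PT against Sham), 2108 (Pushen against Sham) and 0 (Pushen against PT). Upper-quartile scaling also took P2ry14 out (adjusted p = 0.0532), and the compared groups alone did too (0.066), while scaling by library size and the compared groups alone brought Nt5e in (0.0425 and 0.0391). Alpl missed the threshold in Pushen against Sham with RLE scaling, upper-quartile scaling or no filter (adjusted p = 0.0504, 0.0554 and 0.0762 by edgeR). P2ry13 missed it there with no filter (0.0525), and in PT against Sham with the compared groups alone (0.0526). Counts limit Adora3 and P2ry6 most in Sham, with 85 and 399 counts over its libraries.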

Other observations

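Several purinergic genes outside the members were below the level filter, so they entered no test above. They were chosen after their values were seen and are given as counts per library. P2ry2, a receptor for ATP and UTP, had 117, 164 and 61 counts in the Pushen libraries, 244, 111 and 131 in the PT libraries and 46, 44 and 41 in the Sham libraries. P2ry10, found on lymphocytes, had 42, 45 and 27 counts in Pushen, 42, 58 and 70 in PT, and 4, 4 and 0 in Sham. Slc28a2, a concentrative nucleoside transporter, had 42, 67 and 14 counts in Pushen, 43, 59 and 66 in PT, and 0, 4 and 0 in Sham. Slc17a9, the vesicular nucleotide transporter, had 145, 138 and 72 counts in Pushen, 211, 159 and 148 in PT, and 62, 98 and 58 in Sham. Panx3 had 0 counts in every library.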
